A study of Mus musculus with 2 samples.

Results

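The solute carriers of 10 gene families move amino acids, glucose, lactate and related nutrients across membranes, and their transcripts were followed here in the whole lung of mouse embryos. Members were the protein-coding genes whose symbol begins with Slc1a, Slc2a, Slc3a, Slc5a, Slc6a, Slc7a, Slc16a, Slc36a, Slc38a or Slc43a and a number. Slc38a4 was left out by that rule. The rule took 102 of the 43346 genes with a row in the tables. It has no end to its pattern, so it also took in Slc7a6os, the neighbour of Slc7a6 on the opposite strand, whose product is not a transporter. It stood at 17.45 TPM in replicate 2 and at 16.96 TPM in replicate 1, where TPM is the relative abundance of transcripts, corrected for their length and set to a fixed sum per library. Without it, 101 members remain.

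RNA came from lungs of B6NCrl mouse embryos, healthy and of mixed sex, on embryonic day 16.5. No genotype or treatment separates the 2 libraries, which are the biological replicates 2 and 1 of a single group. Replicate 2 was made from 41 embryos, and replicate 1 from a pool whose size is not given in the labels. Libraries were made from 10 ng of total RNA longer than 200 nucleotides, with spike-in RNA added, and a pooled whole organ gives no level for a single cell type or embryo. The submitters' tables gave an expected count, an estimate of the reads belonging to each gene, and TPM, which can be compared between genes. Replicate 2 held 27145411 expected counts and replicate 1 held 38852470. Means are given with the SD over the replicates (n = 2), and no difference was tested, because a single group has nothing to be tested against. The labels call the replicates biological, and nothing else separates biological from technical spread.

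Amino acid transporters work as pumps coupled to sodium or protons, as exchangers that trade one amino acid for another, and as facilitators. Several exchangers of the Slc7 family reach the cell surface only when bound to a heavy chain, CD98 from Slc3a2 or rBAT from Slc3a1. The Slc2 family carries hexoses down their gradient, the Slc5 family couples sugars, vitamins and other solutes to sodium, and the Slc16 family carries monocarboxylates such as lactate and pyruvate together with protons. Growing tissues use these routes to supply protein synthesis, glycolysis and nutrient sensing at the lysosome.

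Promoters of 3 members are shown because they span the range of levels: Slc38a2 had the highest level, Slc2a1 was the highest glucose transporter, and Slc7a11 was close to absent. Each is the stretch of 250 bases before the transcription start from RefSeq, build GRCm38.p6, on the strand of the gene. They lie at chr15:96699729-96699978 on the minus strand, chr4:119108495-119108744 on the plus strand and chr3:50443614-50443863 on the minus strand. Capitals mark ACGTG, the core of the hypoxia response element, and TGATGNAA, the core of the C/EBP-ATF response element, read on either strand.
Slc38a2: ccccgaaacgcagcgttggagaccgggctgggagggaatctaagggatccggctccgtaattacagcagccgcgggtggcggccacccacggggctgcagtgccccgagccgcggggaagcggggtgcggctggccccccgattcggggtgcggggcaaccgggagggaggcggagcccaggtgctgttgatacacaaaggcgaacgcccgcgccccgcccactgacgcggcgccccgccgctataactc
Slc2a1: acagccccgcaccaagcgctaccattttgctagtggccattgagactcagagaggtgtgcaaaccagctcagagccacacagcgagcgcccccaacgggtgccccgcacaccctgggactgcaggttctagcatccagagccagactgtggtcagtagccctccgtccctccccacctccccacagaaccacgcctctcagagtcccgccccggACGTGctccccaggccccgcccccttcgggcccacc
Slc7a11: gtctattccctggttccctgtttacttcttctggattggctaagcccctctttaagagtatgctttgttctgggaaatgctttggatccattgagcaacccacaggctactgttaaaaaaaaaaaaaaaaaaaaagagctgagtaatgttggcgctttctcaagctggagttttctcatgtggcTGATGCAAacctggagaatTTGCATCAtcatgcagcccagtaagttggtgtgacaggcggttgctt
Slc7a11 held TGATGNAA in both orientations, starting 66 and 47 bases before the start, and Slc2a1 held ACGTG once, 36 bases before it. Slc38a2 held no match in this stretch. The promoter bases of Slc38a2 were 72% G or C and those of Slc2a1 66.4%, against 43.2% in Slc7a11. A match describes these letters and not a bound site.

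A level of 1 TPM or more in both libraries, called detected here, was reached by 53 of the 102 members, or 52.0%. Among the other 267 protein-coding Slc genes 62.2% were detected, and among all 21474 protein-coding genes 61.5%. At 10 TPM or more in both libraries the counts were 24 members (23.5%), 34.5% of the other Slc genes and 40.3% of all coding genes. The median member stood at 1.81 TPM in replicate 2 against 1.27 TPM in replicate 1, a mean of 1.54 ± 0.382 TPM, against 4.04 ± 0.127 TPM for the other Slc genes and 4.87 ± 0.219 TPM for all coding genes. Among the detected genes the medians were 8.86 ± 0.148 TPM for members, 13.1 ± 0.0990 TPM for other Slc genes and 19.0 ± 0.159 TPM for coding genes. Another 45 members were below 1 TPM in both libraries, and 4 passed in 1 library only.

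Together the members took 991 TPM (replicate 2) and 997 TPM (replicate 1), or 0.0991% and 0.0997% of all transcripts, and few genes supplied most of it. The 5 highest gave 44.5% of this sum in replicate 2 and 45.4% in replicate 1. The 24 highest gave 83.9% in replicate 2 and 85.2% in replicate 1. Their levels differed little between the libraries, with a coefficient of variation of 3.46% at the median and 14.6% at most, in Slc43a1.

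**Figure D1:**
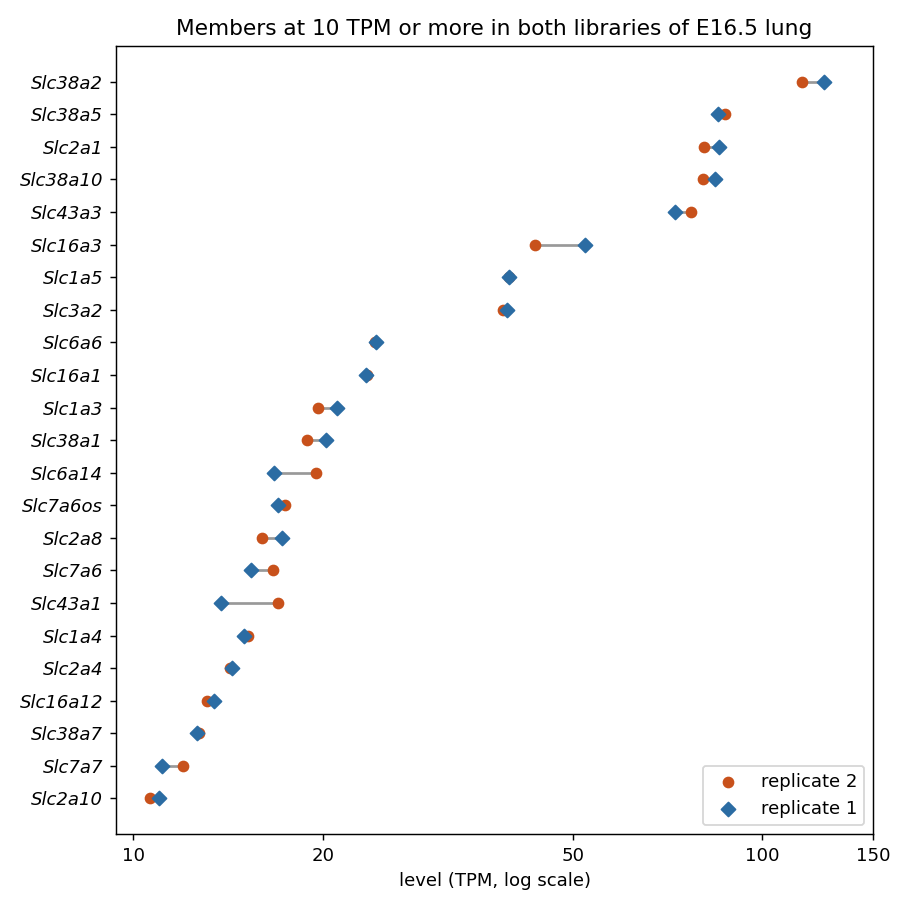
Level in TPM (log axis) of 23 of the 24 members at 10 TPM or more in both libraries, one row per gene, with circles for replicate 2, diamonds for replicate 1 and a line joining them. Slc38a2 stands apart at 115 and 125 TPM, 4 further genes lie between 72.7 and 87.05 TPM, and Slc2a10 is lowest at 10.6 and 11.0 TPM.

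The order of the 24 was only partly resolved. The ranges of the libraries did not overlap for 13 of the 23 neighbouring pairs. Slc38a2 lay above the next gene, but Slc38a5, Slc2a1 and Slc38a10 overlapped each other in turn. From Slc1a3 down to Slc1a4 each gene overlapped its neighbour. A gap between ranges of 2 values can be smaller than counting error, as between Slc1a5 at 39.6 TPM in each library and Slc3a2 at 38.7 TPM in replicate 2 against 39.2 TPM in replicate 1.

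Sodium-coupled carriers of neutral amino acids led the members. The whole Slc38 family, which includes Slc38a10 of other or unsettled cargo, held 33.8 ± 0.590% of the members' summed TPM. Slc38a2, which encodes SNAT2, a pump for alanine, glutamine and other small neutral amino acids, had 115 TPM (replicate 2) and 125 TPM (replicate 1). Slc38a5, a sodium and proton coupled carrier of glutamine, asparagine and histidine, had 87.05 TPM in replicate 2 against 85.05 TPM in replicate 1. Both lay far above Slc38a1, the related SNAT1, at 18.9 TPM (replicate 2) and 20.25 TPM (replicate 1). In build mm10 Slc38a2 lies on chromosome 15 from 96687392 to 96699730 (minus strand). Slc38a2 exceeded Slc38a1 by 2.62 ± 0.01 on the log2 scale of within-library ratios.

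The rest of the Slc38 family spanned most of the range of levels. Slc38a10, a less well characterised member, was at 80.6 TPM in replicate 2 against 84.1 TPM in replicate 1. Slc38a7, which exports glutamine from lysosomes, was at 12.7 TPM (replicate 2) and 12.6 TPM (replicate 1). Slc38a9, the lysosomal arginine sensor that signals to mTORC1, was low, at 2.72 TPM in replicate 2 against 2.76 TPM in replicate 1. The family had 8 of 10 members detected, and Slc38a8 and Slc38a11 were not.

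Among the amino acid carriers, an exchanger of small neutral amino acids came next by gene level. Slc1a5 encodes ASCT2, which trades glutamine for other neutral amino acids, and had 39.6 TPM in each library. It lay below Slc38a2 by a log2 ratio of -1.60 ± 0.08 and above its relative Slc1a4, a serine and alanine exchanger, by 1.39 ± 0.02. Slc1a4 was at 15.2 TPM (replicate 2) and 15.0 TPM (replicate 1). These ratios compare gene levels, and much of the Slc1a5 level was not coding transcript. Its coding transcript Slc1a5-201 had 14.0 TPM in replicate 2 against 16.8 TPM in replicate 1. That lay below Slc1a4, whose transcripts were all coding, in replicate 2 and above it in replicate 1. Of the acidic amino acid carriers of this family, Slc1a3 (GLAST, a glutamate transporter) was at 19.7 TPM in replicate 2 against 21.1 TPM in replicate 1. Slc1a3 exceeded Slc1a1, a second glutamate transporter, by 2.44 ± 0.04, and the other 3 acidic carriers were not detected. With the posterior mean TPM one of these, Slc1a2, was above 1 TPM, at 2.83 in replicate 2 and 1.98 in replicate 1.

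The heavy chain CD98 stood well above every single light chain it can carry. Slc3a2 had 38.7 TPM (replicate 2) and 39.2 TPM (replicate 1). Slc7a5, the leucine exchanger LAT1 that CD98 brings to the membrane, had 8.75 TPM in replicate 2 against 8.96 TPM in replicate 1, from 554 and 785 expected counts. The log2 ratio of Slc3a2 to Slc7a5 was 2.14 in replicate 2 and 2.13 in replicate 1, a mean of 2.14 ± 0.01.

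The light chains that exchange cationic for neutral amino acids were higher than LAT1. Slc7a6 had 16.7 TPM (replicate 2) and 15.4 TPM (replicate 1), and Slc7a7 had 12.0 TPM in replicate 2 against 11.1 TPM in replicate 1. Slc7a5 over Slc7a6 gave -0.85 ± 0.11, and Slc7a5 over Slc7a7 gave -0.38 ± 0.10. This places LAT1 below both in each library when length is taken into account. With expected counts not divided by length, Slc7a5 over Slc7a7 turned to 0.35.

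Other partners of CD98 were lower still. Slc7a8, the related LAT2, was at 1.67 TPM (replicate 2) and 1.59 TPM (replicate 1), and Slc7a10, a serine and alanine exchanger, at 5.90 TPM in replicate 2 against 6.11 TPM in replicate 1. Slc7a11, which imports cystine for glutathione synthesis, had 0.15 TPM (replicate 2) and 0.13 TPM (replicate 1), from 22 and 18 counts. Slc3a2 exceeded it by 8.12 ± 0.16. The other heavy chain gene, Slc3a1, was at 0.49 TPM in replicate 2 against 0.04 TPM in replicate 1, and its partner Slc7a9 at 0.12 TPM (replicate 2) and 0.26 TPM (replicate 1).

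In build mm10 Slc7a5 lies on chromosome 8 from 121881150 to 121907694 (minus strand), wholly inside Gm20388, an annotated coding gene of the opposite strand. Gm20388 was listed with 640 expected counts in replicate 2 and 0 in replicate 1. The exons of the pair share 0 bases, and the count ratio of Slc7a5, replicate 2 over replicate 1 in counts scaled to library totals, was 1.01 with an exact 95% interval from 0.905 to 1.13. Such intervals, and the floors given below, cover counting error only.

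Importers of cationic amino acids of the CAT type were moderate. Slc7a1, the arginine and lysine carrier CAT1, had 9.47 TPM in replicate 2 against 10.1 TPM in replicate 1, and Slc7a2, the related CAT2, had 5.75 TPM (replicate 2) and 5.96 TPM (replicate 1). Slc7a1 exceeded Slc7a2 by 0.74 ± 0.03 per length, but not in undivided counts, where the log2 ratio was -0.02. The third CAT gene, Slc7a3, was below 1 TPM in both libraries, and just above it by the posterior mean TPM, at 1.13 in replicate 2 and 1.06 in replicate 1.

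Facilitators of large neutral amino acids in the Slc43 family were all detected. Slc43a1 (LAT3) had 17.0 TPM in replicate 2 against 13.8 TPM in replicate 1, and Slc43a2 (LAT4) had 7.82 TPM (replicate 2) and 6.77 TPM (replicate 1). Slc43a2 lay below Slc43a1 by a log2 ratio of -1.07 ± 0.06. Slc7a5 and Slc43a2 could not be ordered, at 0.28 ± 0.17, since the ratio did not exceed 2 SD. Slc43a3, which carries purine nucleobases rather than amino acids, dominated the family at 77.0 TPM in replicate 2 against 72.7 TPM in replicate 1.

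In the Slc6 family a few genes were clearly expressed and most were not: 6 of 21 members were detected. Slc6a6, the taurine transporter, had 24.2 TPM (replicate 2) and 24.3 TPM (replicate 1). Slc6a14, a carrier of neutral and cationic amino acids coupled to sodium and chloride, had 19.5 TPM in replicate 2 against 16.7 TPM in replicate 1. Its count ratio, replicate 2 over replicate 1, was 1.18, with an exact 95% interval from 1.10 to 1.28.

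Glycine, creatine and serotonin carriers completed the detected Slc6 genes that have a well-known cargo. Slc6a9, the glycine transporter GlyT1, had 7.45 TPM (replicate 2) and 7.65 TPM (replicate 1), and Slc6a6 exceeded it by 1.68 ± 0.02 on the log2 scale. The creatine transporter gene Slc6a8 averaged 4.51 ± 0.212 TPM, and the serotonin transporter gene Slc6a4 averaged 1.22 ± 0.0707 TPM. The dopamine transporter gene Slc6a3 averaged 0.105 ± 0.0495 TPM.

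Proton-coupled amino acid carriers of the Slc36 family did not reach 10 TPM in both libraries. Slc36a4, which carries proline and tryptophan, had 8.45 TPM in replicate 2 against 9.96 TPM in replicate 1, Slc36a2 had 8.03 TPM (replicate 2) and 7.39 TPM (replicate 1), and Slc36a1, a lysosomal exporter of small amino acids, had 2.64 TPM in replicate 2 against 1.83 TPM in replicate 1. Slc36a1 lay below Slc36a4 by a log2 ratio of -2.06 ± 0.54.

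**Figure D2:**
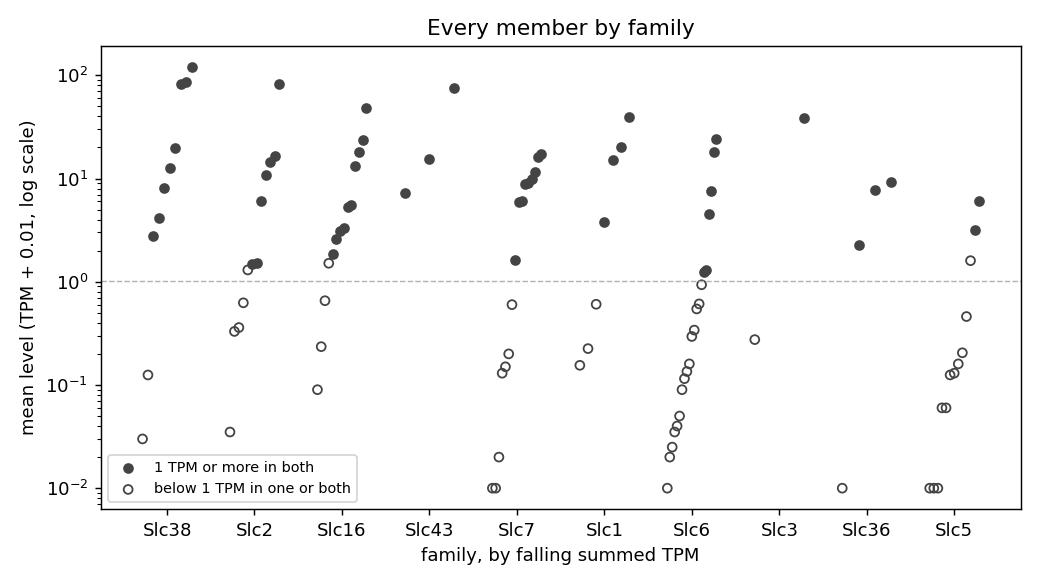
Mean level of every member (TPM + 0.01, log axis) by family, families running by falling summed TPM from left to right, filled where the gene reached 1 TPM in both libraries and open where it did not, with a dashed line at 1 TPM. Most members are filled in every family except Slc3, Slc5 and Slc6, and Slc5 and Slc6 have 2 of 13 and 6 of 21 filled.

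One glucose carrier dominated the Slc2 family. Slc2a1 lies on chromosome 4 from 119108711 to 119137983 (plus strand) in build mm10. Slc2a1, which encodes GLUT1, the basal glucose transporter of many fetal tissues, had 80.8 TPM (replicate 2) and 85.5 TPM (replicate 1), and took 60.3% of the family's TPM in replicate 2 and 61.5% in replicate 1. Slc2a3, the high-affinity neuronal type GLUT3, had 5.72 TPM in replicate 2 against 6.31 TPM in replicate 1. Slc2a1 exceeded it by 3.79 ± 0.04 on the log2 scale.

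Slc2a4, the insulin-responsive GLUT4 of muscle and fat, was at 14.3 TPM (replicate 2) and 14.4 TPM (replicate 1), below Slc2a1 by 2.54 ± 0.05. The summed level of the 9 skeletal muscle marker genes was 569 TPM in replicate 2 against 206 TPM in replicate 1. That of the 8 cardiac marker genes went the other way, with 1164 TPM (replicate 2) and 1408 TPM (replicate 1). The part of muscle in the level of Slc2a4 was not tested. Slc2a8, an intracellular hexose carrier, had 16 TPM in replicate 2 against 17.2 TPM in replicate 1, and Slc2a10, a carrier known from arterial tortuosity in humans, had 10.6 TPM (replicate 2) and 11.0 TPM (replicate 1).

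Transcripts of sodium-coupled sugar carriers were low. Of the 13 Slc5 genes 2 were detected, and neither is chiefly a glucose carrier. Slc5a6, the multivitamin transporter for biotin and pantothenate, had 6.83 TPM in replicate 2 against 5.14 TPM in replicate 1, and Slc5a3, a myo-inositol transporter, had 3.21 TPM (replicate 2) and 3.15 TPM (replicate 1). Slc5a1, the intestinal glucose pump SGLT1, had 0.28 TPM in replicate 2 against 0.11 TPM in replicate 1, from 21 and 11 counts, and Slc2a1 exceeded it by 8.89 ± 1.01. Slc5a9, a mannose and glucose carrier, passed 1 TPM in 1 library only, with 2.27 TPM (replicate 2) and 0.91 TPM (replicate 1). With the posterior mean TPM it was above 1 TPM in both libraries, at 2.69 in replicate 2 and 1.21 in replicate 1.

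The lactate carriers were led by the form known for export from glycolytic cells. Slc16a3 (MCT4) had 43.5 TPM in replicate 2 against 52.2 TPM in replicate 1, and Slc16a1 (MCT1) had 23.5 TPM in each library. Slc16a1 over Slc16a3 gave a log2 ratio of -1.02 ± 0.19, and in counts not divided by length it was 0.08 ± 0.18, within 2 SD of 0. Slc16a7 (MCT2) averaged 3.06 ± 0.0566 TPM, and Slc16a8 (MCT3), a retinal form, had 0.03 TPM (replicate 2) and 0.13 TPM (replicate 1).

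Slc16a1 lies on chromosome 3 from 104638668 to 104658462 (plus strand) and Slc16a3 on chromosome 11 from 120948480 to 120960868 (plus strand) in build mm10. Of the 3 detected lactate carriers Slc16a3 differed most between the libraries. Its count ratio, replicate 2 over replicate 1, was 0.853 with an exact 95% interval from 0.802 to 0.908, against 1.02 (0.958 to 1.08) for Slc16a1. Basigin, the chaperone that MCT1 and MCT4 need to reach the membrane, was far more abundant than either. Bsg had 1113 TPM in replicate 2 against 985 TPM in replicate 1, above Slc16a1 by 5.48 ± 0.12.

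Other Slc16 genes carry different cargo. In the whole family, lactate carriers included, 10 of 14 were detected. Slc16a12, a creatine carrier, had 13.1 TPM in replicate 2 against 13.45 TPM in replicate 1. Slc16a10, which carries aromatic amino acids, had 3.01 TPM (replicate 2) and 2.17 TPM (replicate 1).

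**Figure D3:**
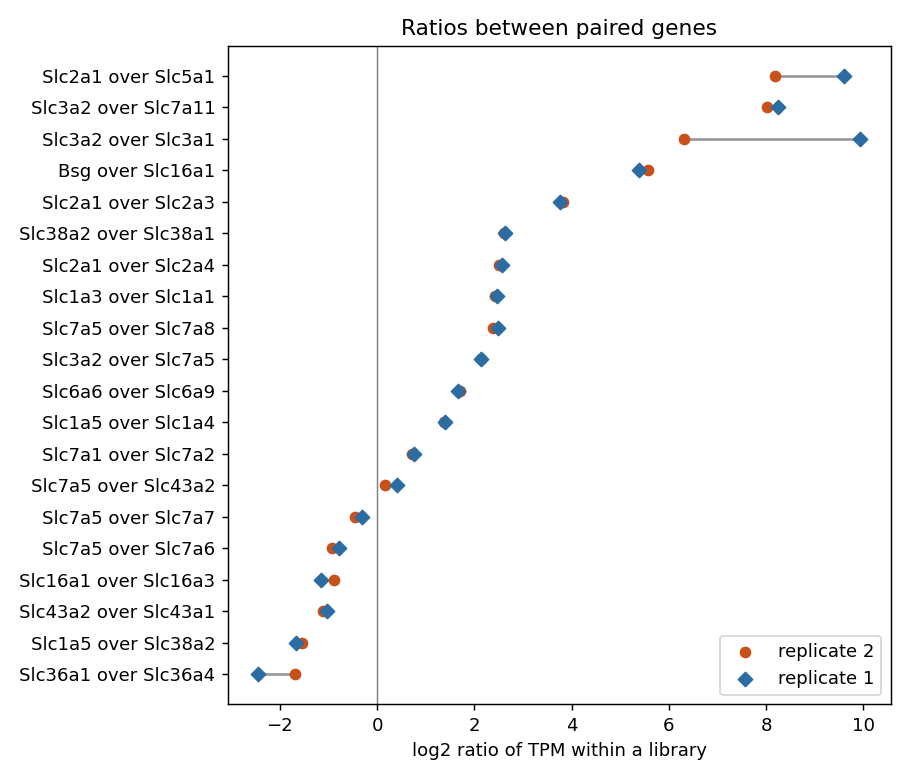
Log2 ratio of TPM within each library (horizontal axis) for the 20 pairs of genes on the vertical axis, circles for replicate 2 and diamonds for replicate 1, with a line at 0 where both genes are equal. Most pairs differ by little between libraries, and the 2 longest lines belong to pairs with a gene at under 1 TPM, Slc2a1 over Slc5a1 and Slc3a2 over Slc3a1, which lies at 6.30 in replicate 2 and 9.94 in replicate 1.

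Ratios taken within a library cancel its scaling. By the rule that both libraries share a sign and the mean exceeds 2 SD, the direction held in 19 of the 20 pairs. The 20 pairs share genes, Slc7a5 and Slc3a2 in particular, so they are not 20 separate measurements. They were chosen with earlier results known, and the same count was not taken over other pairs of genes. The 19 therefore describes how alike the libraries were and is nothing particular to these pairs.

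By cargo, carriers of neutral amino acids took the largest part of the members' TPM, with 19 of 26 detected. Their sum was 386 TPM in replicate 2 against 387 TPM in replicate 1, or 38.9 ± 0.108% of the total. Genes of other or unsettled cargo, among them Slc38a10 and Slc43a3, took 24.3 ± 0.430%. Hexose and related carriers of the Slc2 family took 13.7 ± 0.281%, and lactate and pyruvate carriers 7.49 ± 0.596%. Carriers of cationic amino acids and cystine took 4.44 ± 0.112%, those of taurine, creatine and monoamines 3.23 ± 0.0842%, and those of acidic amino acids 2.52 ± 0.10%.

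At the lower end, 7 members had 0 counts in both libraries. They were Slc5a4a, Slc5a4b, Slc5a12, Slc6a21, Slc7a12, Slc7a15 and Slc36a3. A count of 0 was taken to allow a level of up to a floor of 3 counts. For these genes the floor lay between 0.0522 and 0.138 TPM in replicate 2. In replicate 1 it lay between 0.0370 and 0.0977 TPM. The counts of 0 do not tell a level under these floors from absence.

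Of the 56 members with a mean of 1 TPM or more, 1 differed 2-fold between the libraries on log2(TPM + 1), which is 1.79%, against 2.67% of the 15493 genes at that level. That share is near the background. Of these members 28 were higher in replicate 2 and 28 lower, and the median difference, replicate 2 minus replicate 1, was 0.00 for members as for all genes. The median absolute difference was 0.09 for members and 0.11 for all genes. None of the 24 members with a mean of 10 TPM or more differed 2-fold, a count of 0 against 0.789% of all genes at that level.

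**Figure D4:**
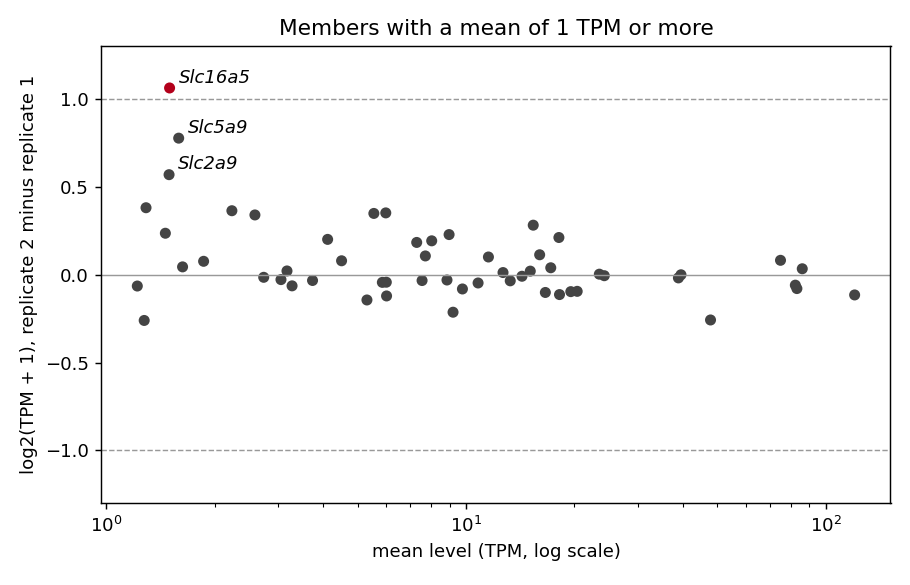
Difference between libraries on log2(TPM + 1), replicate 2 minus replicate 1, against mean level (log axis) for the 56 members with a mean of 1 TPM or more, with dashed lines at 2-fold and the 1 gene past it in red. Slc16a5 lies at 1.06, and differences shrink as the level rises.

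The gene past 2-fold was Slc16a5, an Slc16 member with no settled lactate role. It had 2.38 TPM (replicate 2) and 0.62 TPM (replicate 1), from 55 and 29 counts, a difference of 1.06 on log2(TPM + 1). Its count ratio was 2.72 with an exact 95% interval from 1.70 to 4.42. With the posterior mean TPM it had 3.41 TPM in replicate 2 against 1.34 TPM in replicate 1. No member then passed 2-fold on the log2 scale with 1 TPM added.

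Several members with a mean under 1 TPM had more counts in replicate 2 relative to library totals. Slc3a1 had 20 counts in replicate 2 and 2 in replicate 1, a ratio of 14.3 with an exact 95% interval from 3.48 to 126. Slc2a2, the GLUT2 of liver and pancreas, had 20 counts in replicate 2 and 9 in replicate 1, a ratio of 3.18 (1.38 to 7.93). Slc6a13, a GABA and taurine carrier found in liver and kidney, had 45 counts in replicate 2 and 29 in replicate 1, a ratio of 2.22 (1.36 to 3.67). These 3 genes were chosen after their values were seen.

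Of the markers of other organs, those of liver, skeletal muscle and thymus were higher in replicate 2 like these genes, and 6 of 8 cardiac markers were lower. All 9 liver markers were past 2-fold and higher in replicate 2, with a summed level of 893 TPM (replicate 2) and 202 TPM (replicate 1). The highest, Trf, had 374 TPM in replicate 2 against 138 TPM in replicate 1, and the lowest, Fgb, had 8.84 TPM (replicate 2) and 0.65 TPM (replicate 1). No liver marker was at 0 in either library. All 7 thymus markers compared were also higher in replicate 2, with summed levels of 62.5 TPM in replicate 2 against 24.5 TPM in replicate 1 over the list of 8. All 8 erythroid and all 8 macrophage markers were higher in replicate 2 too, with none past 2-fold. The part of these tissues and cells in the differences of Slc3a1, Slc2a2, Slc6a13 and Slc16a5 was not tested. In bulk RNA, fewer cells of a type and less RNA per cell cannot be told apart.

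Lung markers showed the labelled tissue in both pools. All 9 epithelial, 8 endothelial and 8 mesenchymal markers were detected, and none of them differed 2-fold. The summed epithelial level, nearly all of it Sftpc, was 15741 TPM (replicate 2) and 12388 TPM (replicate 1).

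Genes that act with the transporters were mostly expressed, beside a detected share of 61.5% among all protein-coding genes. Of 10 partners and regulators listed, 9 were matched to a row, and 8 of these 9 were detected, with Bsg highest. The 1 not detected was Cltrn, a partner of the Slc6a19 group, at 0.32 TPM in replicate 2 against 0.59 TPM in replicate 1. Emb, the chaperone of MCT2, had 20.0 TPM (replicate 2) and 17.1 TPM (replicate 1), and Txnip, which drives GLUT1 off the cell surface, had 164 TPM in replicate 2 against 154 TPM in replicate 1. Of the glucose and lactate enzymes 8 of 9 were detected, with Ldha, a lactate dehydrogenase subunit, highest at 1472 TPM (replicate 2) and 1398 TPM (replicate 1), and Hk3 lowest at 1.07 TPM in replicate 2 against 0.80 TPM in replicate 1.

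Genes of the amino acid response were detected in 9 of 10 cases. Atf4, the factor that raises many transporter genes when amino acids run short, had 96.8 TPM (replicate 2) and 100 TPM (replicate 1), and Phgdh, an enzyme of serine synthesis, was highest at 133 TPM in replicate 2 against 136 TPM in replicate 1. Chac1, which degrades glutathione, was lowest at 0.95 TPM (replicate 2) and 1.47 TPM (replicate 1). Enzymes of amino acid use were detected in 10 of 11 cases, led by Odc1 for polyamine synthesis at 94.2 TPM in replicate 2 against 99.2 TPM in replicate 1, with Gls2, a glutaminase, lowest at 1.34 TPM (replicate 2) and 1.41 TPM (replicate 1).

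The lysosomal machinery that reads amino acids for mTORC1 was detected in 11 of 12 cases. Lamtor2, a subunit of the Ragulator scaffold, was highest at 154 TPM in replicate 2 against 142 TPM in replicate 1, and Rragb, a Rag GTPase, lowest at 0.36 TPM (replicate 2) and 0.51 TPM (replicate 1). Over these 5 lists 46 genes were detected, and 0 of those with a mean of 1 TPM or more differed 2-fold between libraries, against 2.67% of all genes.

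Transcript forms were compared for the 16 members with a mean of 10 TPM or more and more than 1 transcript in the tables, 8 others having a single one. The same transcript led in both libraries in 15, and the leading transcript held 50% or more of the gene's TPM in 14. Slc2a1-201 took 99.6 ± 0.240% of Slc2a1, and Slc16a3-201 took 56.6 ± 2.81% of Slc16a3. Slc38a10 was spread over 16 transcripts, of which Slc38a10-201 took 50.6 ± 2.89%.

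In 3 genes the forms were less settled. Slc43a1-204 led Slc43a1 with 42.65% in replicate 2 and 38.7% in replicate 1, the lowest mean share among the 16 genes. Slc1a4-202 held 72.3% of Slc1a4 in replicate 2 and 40.0% in replicate 1, where the other of its 2 transcripts led. From the posterior mean TPM, Slc1a4-202 led in both, with 63.7% in replicate 2 and 55.8% in replicate 1. For Slc1a5 the leading form was Slc1a5-202, annotated as a retained intron, with 52.3% in replicate 2 and 44.4% in replicate 1. Coding transcripts of Slc1a5 held 35.3% of its TPM in replicate 2 and 42.4% in replicate 1, so its gene level is not a level of coding transcript alone. Shares of overlapping transcripts rest on the submitters' estimator.

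Whether reads were counted by strand is not given in the sources used here. It is therefore not known whether reads of overlapping genes on opposite strands were told apart. Overlaps were taken from GENCODE M21, while the submitters' levels rest on GENCODE M4. In 9 detected members an exon overlapped an exon of an opposite-strand gene that was itself at 1 TPM or more in both libraries. Slc5a6 shares 396 exonic bases with Atraid, which was at 143 TPM in replicate 2 against 142 TPM in replicate 1, and Slc7a7 shares 232 with Oxa1l at 26.3 TPM (replicate 2) and 25.0 TPM (replicate 1). Below 1 TPM, Slc3a1 shares 601 exonic bases with Prepl, which was at 17.3 TPM in each library. Slc5a3 shares 159 bases with Mrps6 on the same strand.

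RefSeq held promoters, from 250 bases before to 50 after a start, for 74 of the 102 members, with 95 member promoters among 32851 in all. TGATGNAA was found in 4 members, namely Slc1a4, Slc6a21, Slc7a7 and Slc7a11, and in 5.26% of member promoters against 3.97% of all. Their levels ran from 0 counts in Slc6a21 to a mean of 15.1 TPM in Slc1a4. The E-box CACGTG was in 12.6% of member promoters and 7.15% of all, and ACGTG, which lies inside it, in 27.4% and 19.6%. Members holding ACGTG included Slc2a1, Slc16a1, Slc16a3, Slc38a5 and Slc3a2 as well as Slc7a15, which had 0 counts.

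Promoter composition differed with detection, as it did over all coding genes. A CpG content over 0.6 of that expected from base composition was found in 26 of the 37 detected members with a promoter and in 12 of the 37 not detected. A gene with several starts was taken at its highest value, so genes with more starts had more chances to pass. The shares were 70.3% and 32.4% for members, against 74.8% and 15.4% for all detected and not detected coding genes. This comparison was added after the data were seen and carries no test.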

How the data were processed

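Total RNA-seq of 2 libraries of E16.5 mouse lung was used as deposited. Per the notes deposited with the files, reads were aligned to mm10 and quantified from transcriptome alignments with GENCODE M4. The aligner, quantifier and strand setting are not given in the sources used here. Per the file headers, the authors gave expected counts, TPM, posterior mean TPM and FPKM per gene, and the percent of each transcript in its gene's TPM. The deposited credibility bounds of TPM (treated as a score) were not used in the text. TPM was scaled over all rows, spike-ins included, and the spike-ins held 5.02% of it (replicate 2) and 5.16% (replicate 1).

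Gene IDs without version were matched to GENCODE M21, giving a symbol to 42462 of 43346 rows. Differences are log2(TPM + 1), replicate 2 minus replicate 1, for genes with a mean of 1 TPM or more, called at 2-fold. Count ratios have exact 95% intervals from rounded expected counts. Promoters came from RefSeq GRCm38.p6. Scaling alternatives used edgeR 4.0.16 and DESeq2 1.42.0 in R 4.3.3 on rounded expected counts. Other steps used Python 3.11.15.

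The members, gene lists and pairs were chosen with earlier results of these data known. Genes were named by a rule: the 3 highest of each family, members at 10 TPM or more, past 2-fold, in a pair or at 0 counts, and the highest and lowest of each companion list. Further genes with a known cargo or role were named outside this rule, after their values were seen. Other organs' marker lists are given mainly as sums. Protein sequences were not used here, and 1 member that the rule names is not reported here.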

Additional observations from a re-analysis of the deposited data

How the results depend on the processing

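The number of members detected was 53, against 61 at a threshold of 0.5 TPM and 36 at a threshold of 5 TPM. It stayed within 1.5 times of 53 under every setting run, including the list without Slc7a6os. The median level moved by more than 1 SD with the posterior mean TPM (2.00 TPM), with FPKM as deposited (1.04 FPKM) and over members with a mean of 1 TPM or more (8.23 TPM). The share of neutral amino acid carriers was 38.4% with the posterior mean TPM.

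The count past 2-fold was 2 with a pseudocount of 0.1 TPM, where 4.25% of all genes passed. It was 0 at a mean of 5 TPM or more (1.18% of all genes), with CPM under TMM (1.12%) or DESeq2 (1.08%) scaling, and with the posterior mean TPM (1.90%). The filter at 5 TPM leaves out Slc16a5, the gene past 2-fold, so the 0 found there was fixed in advance. The count ratio of Slc16a5, scaled to library totals with no pseudocount, was above 2-fold, though its exact interval reached below that. The 0 under CPM therefore does not show that scaling removed the difference. Under CPM and with the posterior mean TPM, 1 was also added before the log, which shrinks the ratio of a gene at so low a level. Neither setting was run with a smaller pseudocount. Leads at 50% or more numbered 7 of 8 genes at 20 TPM or more, where fewer genes were compared. In counts not divided by length, 18 of 20 pairs had a shared sign in both libraries and a mean over 2 SD. That count included Slc7a5 over Slc7a7, which turned round (0.35) and so did not keep its reported direction. Slc7a1 over Slc7a2 (-0.0182 ± 0.0113) and Slc16a1 over Slc16a3 (0.0756 ± 0.179) changed sign but lay within 2 SD of 0. Slc7a5 over Slc43a2 became 0.69 ± 0.01 and held its sign. In TPM the 2 libraries shared a sign in each of the 20 pairs, so leaving out either replicate could reverse none.

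With 1 library left, neither the 2-fold count, the median difference nor the 2 SD rule can be computed. No paired analysis was possible because there is a single group. The posterior mean moved members at 10 TPM or more by at most 1.05 times, and raised Slc6a17 and Slc16a5, the most among the 56 with a mean of 1 TPM or more, by 1.76 and 1.58 times. Below that it could move levels further, as for Slc1a2. Levels under 1 TPM rest on few counts.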
